A study of Mus musculus with 26 samples.

Results

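The early growth response (EGR) factors and their NAB corepressors form a small set of 6 genes, Egr1, Egr2, Egr3, Egr4, Nab1 and Nab2. They were chosen by name and followed through all 9 groups of an RNA-seq study of insulin receptor (IR) mutants. They are 6 of the 52962 genes in the count table, and 5 of them were among the 15402 genes tested. All cells were brown preadipocytes from newborn mice with floxed IR and IGF1R (the IGF-1 receptor) genes, immortalised with SV40 T-antigen and cleared of both receptors with an adenovirus carrying Cre recombinase. These double knockout (DKO) cells received, by retrovirus, an empty vector or the human IR (B isoform) in 1 of 4 FLAG-tagged forms. The forms were intact IR, the kinase-dead K1030R, ∆CT, which lacks the 79 C-terminal amino acids, and JMO, which keeps only the 36 intracellular amino acids next to the membrane and so lacks the kinase domain. Every group was starved of serum for 6 h. IR, K1030R, ∆CT and JMO cells were then left untreated (basal) or given 100 nM insulin for 15 min, whereas DKO cells were measured in the basal state only. There were 3 libraries in each group and 2 for ∆CT with insulin. Each receptor was carried by a single transduced line and the labels do not say that libraries came from separately made lines, so p-values measure the spread between these samples, and a line and its receptor cannot be told apart.

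EGR proteins are zinc-finger transcription factors that bind GC-rich sites, and their genes are immediate early genes, switched on within minutes of a growth signal without new protein synthesis. The classical route to them runs from a receptor tyrosine kinase through RAF, MEK and ERK to ELK factors, which sit with SRF (serum response factor) on CArG boxes of the promoters. NAB1 and NAB2 have no DNA binding of their own. They attach to EGR1, EGR2 and EGR3 and mostly repress transcription there, and NAB2 is itself known as an EGR target that closes a feedback loop. In fat cell precursors, EGR2 (KROX20) is known as an early promoter of adipogenesis and EGR1 as a brake on it.

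The promoter sequences of Egr2 are shown because Egr2 moved in both kinds of comparison, and that of Egr4 because no read was assigned to that gene. RefSeq promoter windows on GRCm38.p6 matched Egr2 (5 start sites), Egr4, Nab1 and Nab2 (1 start site each) by symbol. Egr1 and Egr3 had no entry. The 250 bases before a start were searched on both strands for the CArG box, for TGACG (the core of the cAMP response element) and for GCGNGGGCG (the EGR site). GGAA, the core of ETS factor sites, was also searched and is not marked, since 93.4% of windows held it. Capitals mark every match of the 3 other motifs in the 3 windows printed, each read 5′ to 3′ on the strand of its gene. The first is chr10:67537619-67537868 and the second chr10:67537316-67537565, both on the plus strand before Egr2 start sites. The third is chr6:85513590-85513839 on the minus strand, before the Egr4 start site.
Egr2, start at 67537869: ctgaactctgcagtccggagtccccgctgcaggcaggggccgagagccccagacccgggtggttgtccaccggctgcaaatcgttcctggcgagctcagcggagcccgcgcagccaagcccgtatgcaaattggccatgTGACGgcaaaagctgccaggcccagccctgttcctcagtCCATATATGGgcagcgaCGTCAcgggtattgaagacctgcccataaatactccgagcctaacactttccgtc
Egr2, start at 67537566: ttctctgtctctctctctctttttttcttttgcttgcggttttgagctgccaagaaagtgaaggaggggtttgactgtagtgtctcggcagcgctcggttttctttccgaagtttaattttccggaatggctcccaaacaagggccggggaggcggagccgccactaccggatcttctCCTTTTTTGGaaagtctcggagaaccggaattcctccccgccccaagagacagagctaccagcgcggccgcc
Egr4, start at 85513589: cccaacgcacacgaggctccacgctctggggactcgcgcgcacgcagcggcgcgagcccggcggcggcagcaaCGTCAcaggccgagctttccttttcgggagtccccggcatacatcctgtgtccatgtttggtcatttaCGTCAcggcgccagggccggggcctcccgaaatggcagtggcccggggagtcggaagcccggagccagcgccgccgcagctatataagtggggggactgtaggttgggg

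The first Egr2 window held the CArG box CCATATATGG from 72 to 63 bases before the start, with TGACG from 111 to 107 bases and its reverse complement CGTCA from 55 to 51 bases before it. The second held the CArG box CCTTTTTTGG, also from 72 to 63 bases before its start. Of the other 3 Egr2 windows, those before 67537870 and 67537930 overlap the first and hold the same CCATATATGG, and that before 67535499 held none of the 3 motifs. The 4 windows with a CArG box thus hold 2 different boxes. In comparison, 482 of 32851 mouse start sites (1.47%) had a CArG box in a window of this length, 17.8% had TGACG and 4.7% had GCGNGGGCG. The Egr4 window had TGACG on the reverse strand at 2 places and no CArG box. The Nab1 window had GCGNGGGCG at 3 places, one of them GCGTGGGCG from 109 to 101 bases before the start, and TGACG at 1 place, whereas the Nab2 window had none of the 3 motifs. A match describes the letters only.

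Counts are the authors' kallisto estimates summed to genes, and levels are given as CPM (counts per 1000000 counts of the library) after TMM scaling between libraries. Library totals ran from 17228982 to 24694828 counts. The deposited table held a second identifier, ENSMUSG00000116458, with the counts of Egr2 (ENSMUSG00000037868) in all 26 libraries. Egr2 levels below are therefore those of 1 identifier unless the sum is named, and the sum of both is 2 times as high with the same fold changes. Which locus the second identifier stands for was not resolved, so wherever the sum is used, a level or ratio rests on counting it as Egr2. As a check of the labels, Insr ran from 22.3 to 24.7 CPM in DKO cells and from 65.5 to 99.6 CPM in the 4 receptor lines, where reads of the human transcript may count for the mouse gene, which was not tested. Igf1r ran from 24.7 to 28.5 CPM in DKO cells and from 29.7 to 35.7 CPM in the others. Which exons the reads cover is not in a gene table, so these levels do not test the deletion. Of the 11 preadipocyte or mesenchymal markers, 7 had a median above 0.5 CPM, with Col1a1 at a median of 6097 CPM and Pdgfra at 219.6 CPM. The defining brown lineage genes Ebf2 and Prdm16 had medians of 0.163 and 0.0422 CPM. Of the 6 mature adipocyte markers 1 had a median above 0.5 CPM, Fabp4 from 0.444 to 4.76 CPM. Ucp1 was at 0 in 25 libraries and Plin1 in 2. Of the 4 macrophage or immune markers 2 had a median above 0.5 CPM, with Cd68 from 1.54 to 3.65 CPM, and Adgre1 was at 0 in all 26 libraries. Of the 3 endothelial markers 1 did, Pecam1 from 6.82 to 17.4 CPM, while Cdh5 was at 0 in 16 libraries. None of the 4 muscle markers did, and Myod1 and Myf5 were at 0 in all 26. The Schwann cell factor Sox10, which works with EGR2 in myelin, was at 0 in 25 libraries. In these bulk samples, fewer responding cells and less RNA per cell cannot be told apart.

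Egr4 (ENSMUSG00000071341, chr6:85511121-85513589, minus strand) had 0 counts in all 26 libraries, with and without insulin. A floor of 3 counts per library corresponds to 0.121 to 0.174 CPM. It did not enter the tests. The remaining genes differed in abundance. Per kilobase of the longest coding transcript, with both Egr2 identifiers summed, Nab2 stood at 39.8 ± 3.8 CPM per kb and Nab1 at 29.3 ± 0.97 in basal IR cells (mean ± SD, n = 3, as for all values below except n = 2 for ∆CT with insulin). On this scale Egr1 was at 24.3 ± 2.2, Egr3 at 2.60 ± 0.10 and Egr2 at 2.59 ± 0.23. Egr1 thus made up 82.4% ± 1.2 of the EGR transcripts measured in basal IR cells and 72.4% ± 0.36 in DKO cells. Such levels depend on the length used. The longest coding transcripts have 4484 bases for Egr1, 2965 for Egr2, 3940 for Egr3, 3874 for Nab1 and 2582 for Nab2, and the shortest annotated ones 3036, 356, 1509, 1371 and 386. With the shortest lengths, a setting chosen after seeing the data, the Egr1 share was 55.9% in basal IR and 38.9% in DKO cells.

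**Figure D1:**
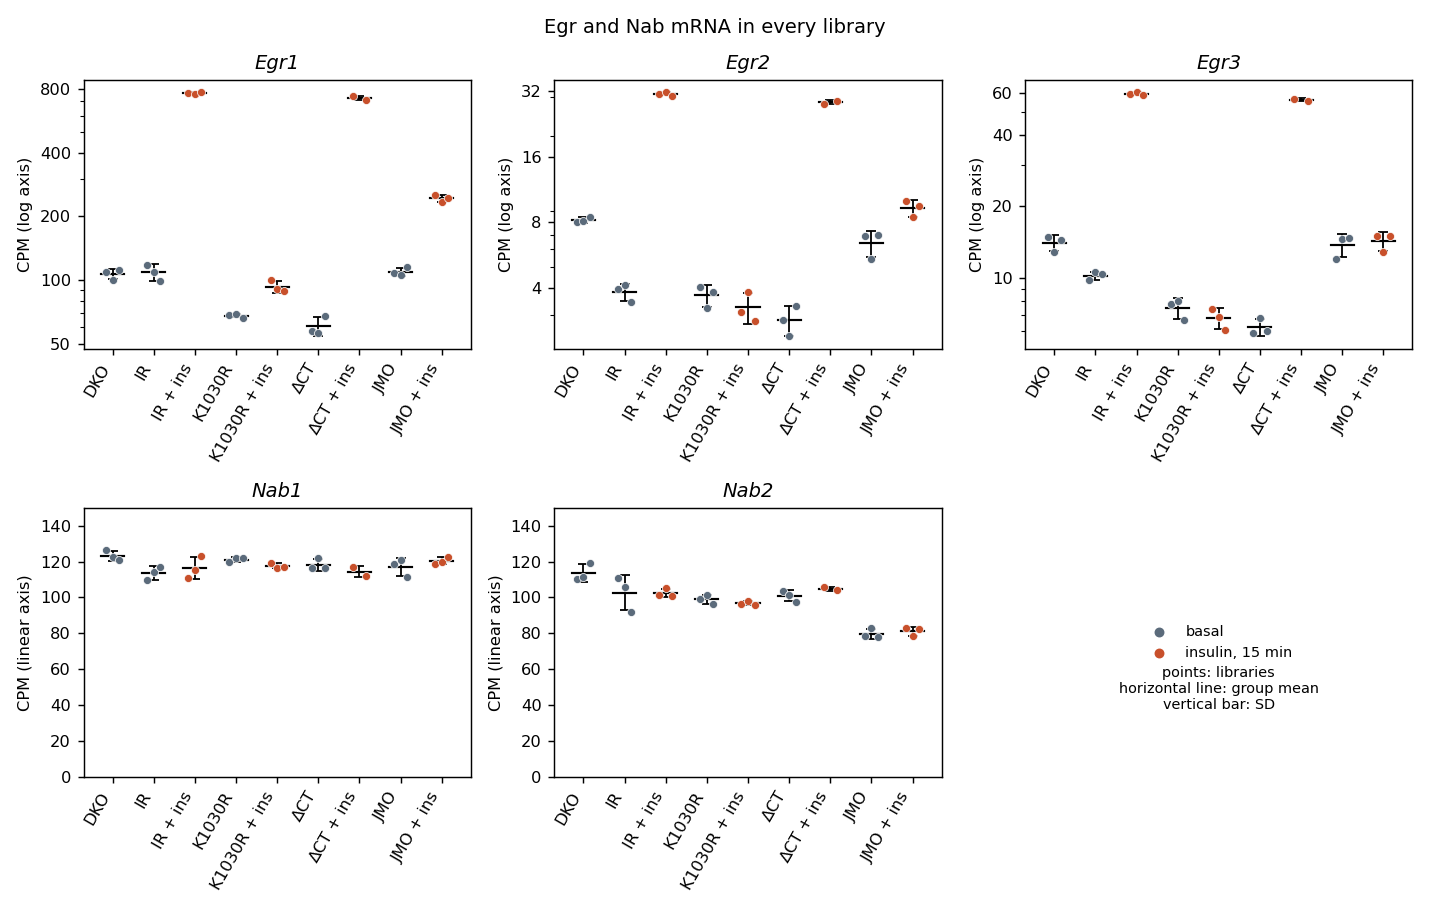
Level of each tested gene in CPM (vertical axis, logarithmic for Egr1, Egr2 and Egr3, linear from 0 for Nab1 and Nab2) in the 9 groups (horizontal axis), with 1 point per library, the group mean as a horizontal line and the SD as a bar. Egr1 reached 762 to 774 CPM in IR cells with insulin against 99.1 to 118 CPM without, whereas Nab1 stayed between 109.7 and 126 CPM in all 26 libraries.

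The first question was how the level of each gene without insulin depended on the receptor. Egr1, the most abundant of the EGR genes, was at 109, 100.3 and 112 CPM in the 3 DKO libraries, at 118, 109.9 and 99.1 CPM in IR cells and at 108, 105 and 115 CPM in JMO cells. It was at 68.2, 69.0 and 66.5 CPM in K1030R cells and at 57.3, 56.6 and 67.8 CPM in ∆CT cells. The K1030R and ∆CT libraries thus lay below every DKO, IR and JMO library, and the 3 higher lines overlapped each other. Egr1 (ENSMUSG00000038418) lies at chr18:34859823-34864984 on the plus strand.

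Egr2 was at 8.04, 8.07 and 8.49 CPM in DKO cells, above every basal library of the 4 receptor lines. JMO cells came next with 6.91, 5.41 and 6.99 CPM. IR cells had 3.93, 4.13 and 3.46 CPM, K1030R cells 4.03, 3.22 and 3.83 CPM and ∆CT cells 2.85, 2.40 and 3.31 CPM. The IR and K1030R libraries overlapped, as did those of K1030R and ∆CT, and all 3 lines lay below JMO. These levels rest on 48 to 212.5 counts per basal library, for the 1 identifier used. The Egr2 gene spans chr10:67535475-67542188.

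Egr3 was at 14.8, 12.8 and 14.5 CPM in DKO cells and at 12.04, 14.5 and 14.8 CPM in JMO cells, which overlapped. IR cells had 9.78, 10.5 and 10.4 CPM and lay between these lines and the other two. K1030R cells had 7.76, 8.004 and 6.62 CPM and overlapped ∆CT cells, which had 5.83, 6.79 and 5.95 CPM. Egr3 (ENSMUSG00000033730) lies at chr14:70077203-70082614 on the plus strand, and its levels, like those of Egr2, were ordered from DKO through JMO, IR and K1030R to ∆CT. Of the neighbours in this order, DKO and JMO did not pass the test for Egr3, IR and K1030R did not pass for Egr2, and K1030R and ∆CT passed for neither gene.

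Against DKO cells, 4 of the 5 genes were lower in IR cells at an adjusted p below 0.05 (edgeR's quasi-likelihood test, Benjamini-Hochberg adjustment over all genes, as for every adjusted p below). In the same comparison 49.8% of all genes tested were called, so a count of members says little on its own, and sizes are given. Egr2 was 2.14-fold lower (log2 -1.10 ± 0.12, SE, adjusted p = 7.3e-10) and Egr3 1.38-fold lower (log2 -0.47 ± 0.09, adjusted p = 2.4e-05). Egr1 did not pass, with a log2 difference of 0.03 and a 95% interval from -0.11 to 0.16. The 3 EGR genes therefore parted in this line, with values for Egr1 that overlapped those of DKO cells.

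In K1030R cells 4 of the 5 genes were lower than in DKO cells, against 41.6% of all genes called. Egr1 was 1.58-fold lower (log2 -0.66 ± 0.07), Egr2 2.23-fold lower and Egr3 1.89-fold lower, with adjusted p from edgeR of 2.8e-08, 5.6e-10 and 3.2e-10. In ∆CT cells 4 were lower as well, against 46.3% of all genes, and the folds were 1.77 for Egr1, 2.88 for Egr2 and 2.28 for Egr3. Between ∆CT and K1030R none of the 5 was called by edgeR or DESeq2, against 3.43% of all genes. The estimates for Egr1, Egr2 and Egr3 were -0.17, -0.37 and -0.27 on the log2 scale with unadjusted p of 0.0250, 0.0138 and 0.0160 in edgeR. Without ∆CT basal replicate 3, whose Egr1 level is the highest of its group, the Egr1 difference was -0.25 with an adjusted p of 0.0240 in edgeR.

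In JMO cells 2 of the 5 were lower than in DKO cells, against 34.3% of all genes. Egr2 was 1.27-fold lower (log2 -0.35 ± 0.11, edgeR adjusted p = 0.0101), and this call was lost without JMO basal replicate 2 (log2 -0.24, adjusted p = 0.0943). Neither Egr1 (95% interval -0.10 to 0.16) nor Egr3 (-0.21 to 0.13) passed. The libraries of cells carrying the receptor without a kinase domain thus overlapped those of cells without any receptor for Egr1 and Egr3 and not for Egr2.

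**Figure D2:**
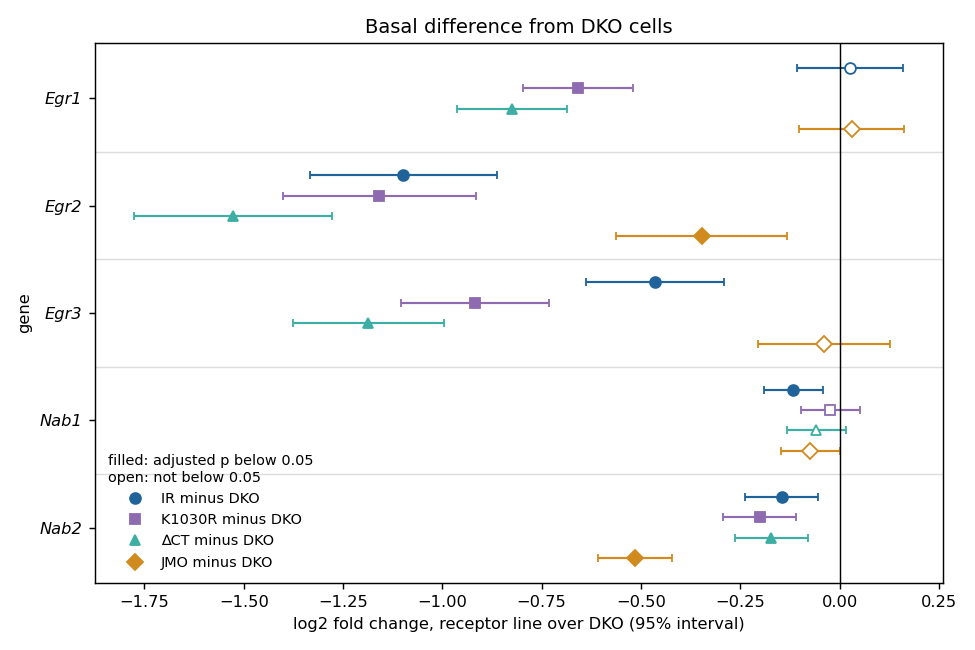
Basal log2 fold change of each gene (vertical axis) in the 4 receptor lines over DKO cells (horizontal axis), as the edgeR estimate with its 95% interval, filled where the adjusted p was below 0.05. Egr2 ran from -0.35 in JMO to -1.53 in ∆CT cells, Egr1 was near 0 in IR and JMO cells only, and Nab2 was lowest in JMO cells at -0.52.

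Set against intact IR, 2 of the 5 genes were lower in K1030R cells, against 30.2% of all genes. These were Egr1, 1.61-fold lower (edgeR adjusted p = 4.7e-08), and Egr3, 1.37-fold lower (adjusted p = 3.9e-04), while Egr2 had a log2 difference of -0.06 with a 95% interval from -0.33 to 0.21. In ∆CT cells 3 were lower than in IR cells, against 26.1% of all genes: Egr1 1.80-fold, Egr3 1.65-fold and Egr2 1.35-fold. The Egr2 call (edgeR adjusted p = 0.0190) was lost without IR basal replicate 1 or 2 (adjusted p = 0.0614 and 0.0772) and without ∆CT basal replicate 1 or 2 (0.0526 and 0.151), and in a model of these groups alone (0.120).

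JMO cells had 1.68-fold more Egr2 and 1.34-fold more Egr3 than IR cells, with adjusted p from edgeR of 3.0e-06 and 1.1e-04, and with Nab2 3 of the 5 genes were called, against 42.4% of all genes. Egr1 did not pass, with a 95% interval of the log2 difference from -0.13 to 0.14. Against K1030R cells, 4 of the 5 genes were called in JMO cells (35.4% of all genes), with Egr1 1.61-fold, Egr2 1.76-fold and Egr3 1.84-fold higher. Against ∆CT cells 4 were called as well (38.8% of all genes), with Egr1 1.81-fold, Egr2 2.27-fold and Egr3 2.21-fold higher. In both comparisons the gene that was lower in JMO cells was Nab2.

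The corepressor genes differed less between lines. Nab1 (ENSMUSG00000002881, chr1:52457294-52500679, minus strand) averaged 123 ± 2.8 CPM without a receptor and 114 ± 3.8 CPM with intact IR. It averaged 121 ± 1.3 CPM with K1030R, 118 ± 3.3 CPM with ∆CT and 117 ± 5.0 CPM with JMO. Of its 10 basal comparisons 1 passed, IR against DKO, where it was 1.08-fold lower (log2 -0.12 ± 0.04, edgeR adjusted p = 0.00810). That call was lost without IR basal replicate 1 (adjusted p = 0.0647). K1030R against IR lay just outside the threshold for Nab1 (log2 0.09, edgeR adjusted p = 0.0527) and passed with RLE scaling (0.0371). It also passed in edgeR with single libraries left out, at adjusted p from 0.0268 to 0.0462. These were IR basal replicate 3, IR insulin replicate 1 or 3, ∆CT basal replicate 2 or 3, JMO basal replicate 3 and JMO insulin replicate 2.

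Nab2 (ENSMUSG00000025402, chr10:127660918-127668568, minus strand) was at 110, 111 and 119 CPM in DKO cells and at 78.4, 82.8 and 77.7 CPM in JMO cells, below every library of the other lines. It was 1.43-fold lower in JMO than in DKO cells (log2 -0.52 ± 0.05, edgeR adjusted p = 5.3e-11), 1.29-fold lower than in IR cells, 1.24-fold lower than in K1030R cells and 1.27-fold lower than in ∆CT cells. IR, K1030R and ∆CT cells, at 103 ± 9.8, 98.9 ± 2.4 and 101 ± 3.0 CPM, were 1.11-, 1.15- and 1.13-fold lower than DKO cells. Of these 3 calls, that for IR was lost without DKO basal replicate 3 (adjusted p = 0.0733 in edgeR) or IR basal replicate 3 (0.146), and in a model of the groups compared alone (0.0727). No pair of the 3 lines passed the same test, except K1030R and IR when IR basal replicate 3 was left out (log2 -0.13, adjusted p = 0.0121 in edgeR). Nab2 overlaps Nemp1 on the opposite strand over 1668 bases, the antisense gene Gm16229 over 1646 bases and Stat6 over 40 bases. Libraries were reverse-stranded per the study's methods, but whether kallisto used the strand is not given in the sources used here, so reads of these genes may not be separable.

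The second question was what 15 min of insulin did in each line. DKO cells were not given insulin, so a response to insulin or handling without a transduced receptor cannot be told apart from one through it. In IR cells, Egr1 was at 768, 762 and 774 CPM with insulin, Egr2 at 31.1, 31.6 and 30.5 CPM and Egr3 at 59.4, 60.6 and 59.2 CPM. All 9 values lay far above the basal libraries of the line, and the SD over libraries was 0.764% of the mean for Egr1. Egr1 rose 7.03-fold (log2 2.81 ± 0.06), Egr2 8.10-fold (3.02 ± 0.10) and Egr3 5.85-fold (2.55 ± 0.07), with edgeR adjusted p of 4.3e-19, 3.0e-22 and 3.9e-24. Thus 3 of the 5 genes were called, against 1.87% of all genes.

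In ∆CT cells the same 3 genes rose, against 1.01% of all genes called. Egr1 was at 739 and 713 CPM with insulin, Egr2 at 28.05 and 28.9 CPM and Egr3 at 56.8 and 55.6 CPM. From the lower basal levels of this line these were rises of 11.99-fold (log2 3.58 ± 0.07), 9.99-fold (3.32 ± 0.11) and 9.07-fold (3.18 ± 0.09). The adjusted p in edgeR were 2.7e-20, 7.2e-22 and 3.7e-25.

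In JMO cells 2 of the 5 genes rose, against 0.364% of all genes called. Egr1 was at 254, 234 and 243 CPM with insulin, all 3 above the basal libraries of the line, a 2.22-fold rise (log2 1.15 ± 0.06, edgeR adjusted p = 8.6e-11). Egr2 was at 9.97, 8.42 and 9.45 CPM, which also did not overlap the basal values, and rose 1.44-fold (0.52 ± 0.10, adjusted p = 0.00998). That call was lost without JMO basal replicate 2 (0.42, adjusted p = 0.178) or JMO insulin replicate 1 (0.47, adjusted p = 0.129). Egr3, at 15.1, 12.8 and 15.0 CPM, overlapped its basal values and had a log2 difference of 0.06 with a 95% interval from -0.11 to 0.22.

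In K1030R cells 1 of the 5 genes rose, against 0.156% of all genes called. Egr1 was at 100.0, 90.9 and 88.8 CPM with insulin, above the 3 basal libraries, a 1.37-fold rise (log2 0.46 ± 0.07, edgeR adjusted p = 0.00200). The Egr1 rise was called in this line under every alternative without a minimum fold and with each library left out, and not against a minimum fold of 1.5. Egr2, at 3.08, 3.83 and 2.83 CPM, and Egr3, at 7.40, 6.82 and 6.05 CPM, overlapped their basal values, with intervals from -0.46 to 0.11 and from -0.35 to 0.07 on the log2 scale.

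**Figure D3:**
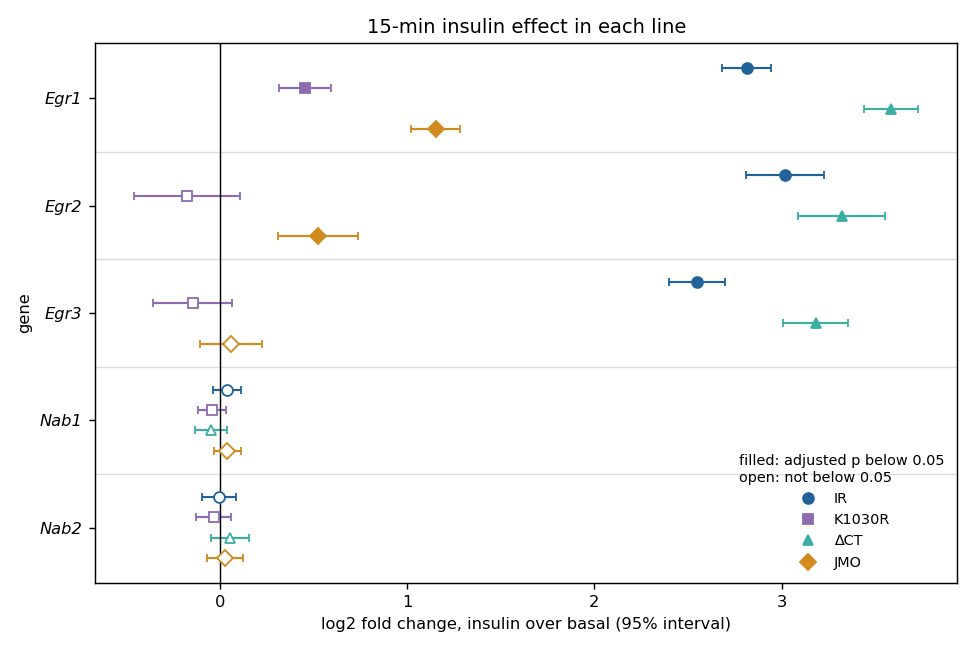
Log2 fold change of insulin over basal (horizontal axis) for each gene (vertical axis) in the 4 receptor lines, as the edgeR estimate with its 95% interval, filled where the adjusted p was below 0.05. Egr1 ran from 0.46 in K1030R to 3.58 in ∆CT cells, Egr3 was called in IR and ∆CT cells only, and all 8 Nab1 and Nab2 estimates had intervals that include 0.

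Neither corepressor gene was called in any line. With insulin, IR cells had 117 ± 6.2 CPM of Nab1 and 102 ± 2.4 CPM of Nab2, and K1030R cells had 118 ± 1.5 and 96.7 ± 1.1 CPM. The ∆CT libraries had 114 ± 3.2 and 105 ± 1.2 CPM and the JMO libraries 120.4 ± 1.9 and 81.1 ± 2.6 CPM. For Nab1 the lowest bound of a 95% interval of the insulin effect was -0.13 and the highest 0.12 on the log2 scale over the 4 lines, and for Nab2 these were -0.13 and 0.16. Basal and insulin libraries did not overlap for Nab1 in K1030R cells (lower with insulin, unadjusted p = 0.255 in edgeR). The same held for Nab2 in ∆CT cells (higher with insulin, unadjusted p = 0.280 in edgeR). How many of all genes separate in this way was not calculated, so no response is read from it.

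The insulin effects themselves were then compared between lines. The effect in K1030R cells was smaller than that in IR cells for 3 of the 5 genes, against 0.37% of all genes called, with log2 differences of -2.36 for Egr1, -3.19 for Egr2 and -2.69 for Egr3. The effect in JMO cells was smaller for the same 3 genes, against 0.279% of all genes, with log2 differences of -1.66, -2.49 and -2.49. The highest adjusted p of these 6 differences in edgeR was 1.4e-11. JMO exceeded K1030R for 1 gene, Egr1, by 0.70 ± 0.09 (adjusted p = 0.00128), one of 4 genes called in that comparison (0.026% of all genes). The Egr2 effect differed by a similar 0.70 ± 0.17 and did not pass (adjusted p = 0.421 in edgeR, unadjusted p = 3.0e-04), but passed without a filter on low counts (0.0403), where 161 of 31455 genes were called.

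The effect in ∆CT cells exceeded that in IR cells for Egr1, by 0.77 ± 0.09 on the log2 scale (edgeR adjusted p = 6.3e-04). It was the single gene of the 15402 tested to pass in that comparison (0.00649%), whereas 2 passed in a model of these 4 groups alone and 141 of 31455 without a filter on low counts. The estimates were also positive for Egr3, at 0.63 ± 0.12 (adjusted p = 0.0599), and for Egr2, at 0.30 with a 95% interval from -0.03 to 0.64. The Egr3 difference was called without ∆CT basal replicate 2 (0.70, adjusted p = 0.0423), without K1030R basal replicate 3 (0.0475), without JMO basal replicate 1 (0.0191), without JMO insulin replicate 2 (0.0310), without a filter on low counts (2.3e-05) and in a model of these 4 groups alone (0.0240).

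On the linear scale the lines compared differently. Egr1 gained 659 CPM with insulin in IR cells and 665 CPM in ∆CT cells, or 101% of the IR gain. Egr3 gained 49.5 and 50.03 CPM, and Egr2 gained 27.3 and 25.6 CPM. The ∆CT gain was thus 101% of the IR gain for Egr3 and 94.1% for Egr2, while the starting levels of ∆CT cells were lower. Gains on this scale were not tested. In JMO cells the gain relative to IR fell from gene to gene, from 20.3% for Egr1 to 10.4% for Egr2 and 1.01% for Egr3. This Egr3 gain was 0.498 CPM with a combined SD of 1.98 CPM, and its basal and insulin libraries overlapped. In K1030R cells the gain relative to IR was 3.84% for Egr1. The Egr2 and Egr3 means of K1030R cells changed by -0.444 and -0.704 CPM, with combined SDs of 0.669 and 1.002 CPM.

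With insulin, no difference between ∆CT and IR cells was called for any of the 5 genes by the tests of edgeR or DESeq2, against 19.7% of all genes called. The intervals of the log2 difference were -0.22 to 0.05 for Egr1, -0.31 to 0.06 for Egr2 and -0.23 to 0.05 for Egr3, and the lowest unadjusted p of the 5 genes was 0.170, so 0 of 5 had one below 0.05. In K1030R cells with insulin 3 genes were lower than in IR cells (34% of all genes called), Egr1 8.24-fold, Egr2 9.53-fold and Egr3 8.85-fold. In JMO cells 4 were lower (40.2% of all genes), Egr1 3.15-fold, Egr2 3.35-fold, Egr3 4.18-fold and Nab2 1.26-fold.

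The balance between factor and corepressor transcripts followed from these changes. Per kilobase of the longest coding transcripts, with both Egr2 identifiers summed, Nab1 and Nab2 together exceeded Egr1, Egr2 and Egr3 together in every basal library. The ratio was lowest in JMO cells at 1.90 ± 0.16. It was 2.30 ± 0.09 in DKO and 2.35 ± 0.09 in IR cells, and the libraries of these lines overlapped. It was 3.56 ± 0.07 in K1030R cells and highest in ∆CT cells at 4.12 ± 0.46. With insulin it was 0.336 ± 0.008 in IR and 0.359 in both ∆CT libraries. It was 0.937, 1.003 and 0.985 in the 3 JMO libraries with insulin and 2.75 ± 0.15 in K1030R cells with insulin. Basal and insulin values did not overlap in any of the 4 lines, and the two-sided exact permutation p, with the smaller tail doubled, was 0.1 with 3 libraries a group and 0.2 in ∆CT cells, the smallest these designs allow. The size of the ratio depends on the lengths and on counting both Egr2 identifiers. With 1 identifier each ratio would be higher, which was not calculated. Whether it lies above or below 1 in JMO cells with insulin is thus not settled. With the shortest coding transcripts the ratio was 0.750 in IR, 0.814 in ∆CT and 2.11 in JMO cells with insulin, and with no length 0.246, 0.261 and 0.730. Basal DKO and IR means were 4.24 and 5.43 with the shortest lengths and 1.72 and 1.71 with no length. Their order thus depends on the lengths.

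Within the EGR genes, the ratio of Egr1 to Egr3 in CPM went with insulin from 10.7 ± 1.3 to 12.8 ± 0.25 in IR cells and from 9.85 ± 1.5 to 12.9 ± 0.13 in ∆CT cells. In JMO cells it went from 8.01 ± 0.90 to 17.1 ± 1.0, with single libraries at 8.9997, 7.25 and 7.79 without and at 16.8, 18.2 and 16.3 with insulin. In K1030R cells it went from 9.15 ± 0.78 to 13.8 ± 0.74. Again basal and insulin values did not overlap in any line, with the same exact p as above, which these designs cannot take below 0.1. The JMO libraries with insulin had the highest ratios of all 26. The ratio of Egr1 to Egr2, with 1 Egr2 identifier, went down in IR cells, from 28.5 ± 1.8 to 24.7 ± 0.63. It went up in the other lines, from 18.6 ± 2.5 to 29.2 ± 4.8 in K1030R, from 21.4 ± 1.9 to 25.5 ± 1.2 in ∆CT and from 17.2 ± 2.0 to 26.3 ± 1.2 in JMO cells, again without overlap and with the same exact p.

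**Figure D4:**
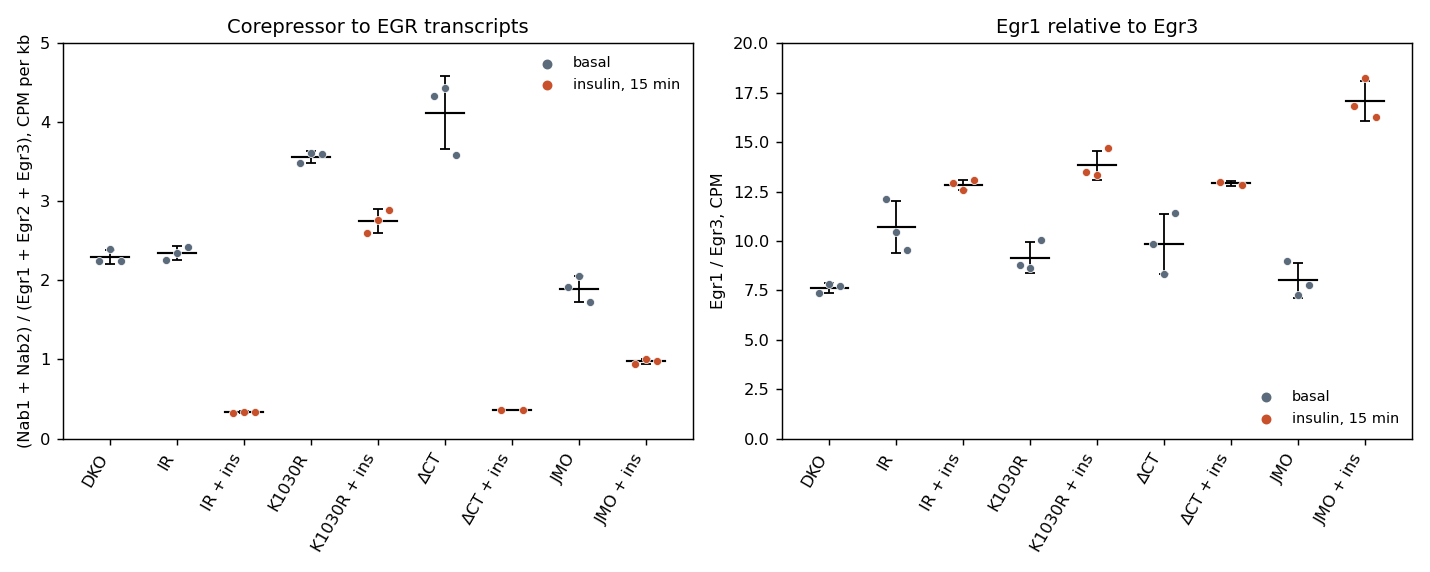
Left, the summed Nab1 and Nab2 level over the summed Egr1, Egr2 and Egr3 level in CPM per kb, with both Egr2 identifiers counted. Right, the ratio of Egr1 to Egr3 in CPM. Both axes start at 0 and show 1 point per library in the 9 groups, with the mean as a horizontal line and the SD as a bar. With the longest coding transcripts as lengths, the left ratio is below 1 in all IR and ∆CT libraries with insulin, and the right ratio is highest in JMO cells with insulin (16.3 to 18.2).

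Of 24 genes of the route to EGR transcription, from adaptors to ELK and SRF factors, 2 were higher with insulin in IR cells (8.33%, against 1.87% of all genes, with a median log2 change of the list 0.01 against -0.01 for all genes). They were Srf, which rose 1.29-fold from 21.7 to 28.1 CPM (edgeR adjusted p = 0.00237), and the RAF kinase gene Araf, which rose 1.12-fold. In ∆CT cells 1 was higher, Srf again (4.17%, against 1.01% of all genes; log2 0.44, edgeR adjusted p = 0.00144), and none was called in K1030R or JMO cells by edgeR or DESeq2, where 2 and 4 had an unadjusted p below 0.05 and Srf had adjusted p of 0.985 and 0.926 in edgeR. Without insulin, 16 of the 24 were called between IR and DKO cells, 8 in each direction (66.7%, against 49.8% of all genes). Rps6ka2 and Rps6ka1, which code for ERK-activated RSK kinases, were 1.70- and 1.43-fold higher in IR cells.

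Of 12 genes for proteins known to bind EGR or NAB factors, 10 were tested and none was called with insulin in any line by edgeR or DESeq2. At an unadjusted p below 0.05 in edgeR there were 3 in IR cells, 2 in JMO cells and 1 in each of the other two lines. Wt1 and Sox10 were below the filter. Without insulin, 6 of the 10 were called between IR and DKO cells, 2 higher and 4 lower (60%, against 49.8% of all genes). Ddx20, a helicase that binds EGR factors, was 1.25-fold lower, Chd3, a subunit of the NuRD complex, was 1.18-fold higher, and the deacetylase gene Sirt1 was 1.10-fold lower in IR cells.

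Of 30 genes known as EGR targets from other systems, 28 were tested. In IR cells with insulin 7 were higher and 1, Gadd45b, was lower (28.6%, against 1.87% of all genes), with a list median of 0.02. Arc, an immediate early gene for a synaptic protein, rose from 7.58 to 53.1 CPM (7.03-fold, edgeR adjusted p = 3.0e-22), Nr4a1, an orphan nuclear receptor gene, rose 5.66-fold and Id3, an inhibitor of basic helix-loop-helix factors, rose 1.56-fold. In ∆CT cells 6 were higher (21.4%, against 1.01% of all genes), among them the same 3 with log2 changes of 2.79, 2.53 and 0.70. In JMO cells 2 were higher, F3 (tissue factor, log2 0.45, adjusted p = 4.6e-09) and Vegfa (0.24), which is 7.14% against 0.364% of all genes. In K1030R cells 1 was higher (3.57%, against 0.156% of all genes), F3 (0.22, adjusted p = 0.00571 in edgeR). F3 and Vegfa are named as the list genes called in these lines. Their changes in IR and ∆CT cells are not given here, so their rise is not read as particular to JMO or K1030R cells. Arc had adjusted p of 0.195 in JMO and 0.963 in K1030R cells. Like the lists above, this one was chosen with earlier results of these data known. The study itself names Arc among the genes raised by insulin, so the share called is a description and not an independent test.

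Without insulin the target list was called in 20 of 28 genes between IR and DKO cells, 8 higher and 12 lower (71.4%, against 49.8% of all genes, list median -0.11). Dusp4, the gene of a phosphatase of ERK, was at 18.6 ± 1.4 CPM in DKO cells and at 5.72 ± 0.81 CPM in IR cells, 3.22-fold lower. It was also lower in K1030R, ∆CT and JMO cells, with log2 differences of -1.33, -1.36 and -0.91. Igf2 and Pdgfb had the largest estimates but lay below 1 CPM in every group mean. In ∆CT cells 25 of the 28 were called, 7 higher and 18 lower (89.3%, against 46.3% of all genes, median -0.28). The list had 7 higher and 13 lower in K1030R cells (71.4%, against 41.6% of all genes, median -0.18). It had 6 higher and 15 lower in JMO cells (75%, against 34.3% of all genes, median -0.24), where neither Egr1 nor Egr3 was called against DKO.

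Across the 9 group means of log2 CPM, the genes most like Egr1 among tested genes with a mean of at least 1 CPM, with the EGR and NAB genes themselves left out, were Fos (Pearson r = 0.995), Junb (0.989) and Btg2 (0.986). By the same rule those most like Egr2 were Junb (0.982), Dusp5 (0.981) and Sowahc (0.979), and those most like Egr3 were Sowahc (0.980), Fos (0.978) and Junb (0.974). Fos and Junb code for AP-1 subunits and Dusp5 for a nuclear ERK phosphatase. The 3 EGR genes had r of 0.961 to 0.986 among themselves, and that of Egr2 with Egr3 (0.986) was above the r of either with any gene named for it. In contrast, r between an EGR and a NAB gene ran from -0.40 to 0.16, and that between Nab1 and Nab2 was 0.01. Nab2 was most like Hoxc10, Rgs3 and Tmf1 (0.990, 0.990 and 0.981) and Nab1 most like Srp54c, Cdkl2 and Lrr1 (0.933, 0.919 and 0.908). Over the 26 libraries r was lower for the NAB genes, at 0.851, 0.910 and 0.835 for the 3 named with Nab2 and at 0.706, 0.456 and 0.364 for those named with Nab1. By that measure Rgs3 ranked 8 for Nab2 and Srp54c ranked 12 for Nab1. In contrast, Hoxc10 and Tmf1 ranked 49 and 63 for Nab2, and Cdkl2 and Lrr1 ranked 1098 and 1985 for Nab1. The likenesses of Hoxc10, Tmf1, Cdkl2 and Lrr1 thus rest on the group means. Of the genes named for the EGR members, Sowahc ranked 10 for Egr2 and 9 for Egr3 over the libraries (r = 0.938 and 0.937). The others named for them ranked from 1 to 3. All these values describe 9 points that share libraries and lines and were not tested.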

How the data were processed

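Polyadenylated RNA of 26 libraries in 9 groups was sequenced. Per the study's methods and its processing notes, the authors used fastp for trimming, kallisto with Ensembl mouse transcripts for quantification and tximport for gene sums. The deposited values are expected counts per gene, neither filtered nor scaled, and 79.9% are whole. Here whole-number rounding was applied, genes passed a filter when 4 or more libraries had over 0.5 CPM, and libraries were scaled with TMM factors. One model over all libraries, with 1 coefficient for each group, was fitted with edgeR 4.0.16 (robust quasi-likelihood, R 4.3.3), and p-values were adjusted by Benjamini-Hochberg over 15402 genes, with calls below 0.05 and no minimum fold. Groups, replicate numbers and treatments came from the labels. The members and the gene lists were chosen with earlier results of these data known. The rule for named genes was the 6 members, the 3 genes most alike by Pearson r, and from each list the 3 largest changes called in IR cells (1 of these is not reported here), and F3, Vegfa and Gadd45b were chosen after their values were seen. Alternatives were RLE scaling, DESeq2 1.42.0, no filter, a minimum fold of 1.5 with edgeR or limma 3.58.1, models of the groups compared, a replicate block, the sum of both Egr2 identifiers, each library left out and, added after seeing the data, other gene lengths for ratios. The procedure was tested on simulated data. At the library totals given, a CPM of 0.5 is about 10 counts. Gene positions and lengths are from GENCODE M21 on GRCm38. The proteomic data were not used here.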

Additional observations from a re-analysis of the deposited data

Results flagged for a closer look

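Insulin effects that differed between lines in edgeR's test of the difference drew attention for 3 genes. Relative to IR cells, the effect in K1030R cells was lower for Egr1 (log2 difference -2.36), Egr2 (-3.19) and Egr3 (-2.69). In JMO cells it was lower for Egr1 (-1.66), Egr2 (-2.49) and Egr3 (-2.49). In ∆CT cells it was higher for Egr1 (0.77), and JMO cells exceeded K1030R cells for Egr1 (0.70). In each K1030R and JMO difference from IR, the 3 IR libraries with insulin lay above every library of the other line. No group had 4 or more libraries, so single libraries were not screened as outliers. Library pairs within a group were unevenly alike over the tested genes. Chi-square per degree of freedom ran from 2.83 (K1030R basal replicates 2 and 3) to 22.5 (IR insulin replicates 1 and 3). It was 13.5 for the 2 ∆CT insulin libraries.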

How the results depend on the processing

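Of 92 tested values for single genes, all 92 kept their direction and side of the threshold with DESeq2 and with the replicate block, and 91 with RLE scaling. The 92 leave out the differences of insulin effects for Nab1 and Nab2. They also leave out the Nab1 and Nab2 comparisons between lines with insulin, except Nab2 in JMO against IR cells. Replicate numbers did not pair libraries (median residual correlation -0.0011 over 100 equally numbered pairs, from -0.11 to 0.096, against -0.0016 over 200 others), and with the replicate block 3 members were called for insulin in IR cells, as without it. All 21 Egr2 values kept their call with both identifiers summed. Without a filter on low counts the Egr1 basal difference of JMO from IR was -0.0080 in place of 0.0046, and the members called became 1 for basal ∆CT against K1030R, 2 for the insulin effect in ∆CT against IR and 2 for that in JMO against K1030R, while the calls over all genes went from 529 to 765, from 1 to 141 and from 4 to 161. In models of the groups compared, 2 were called for ∆CT against IR effects, and the basal calls of Nab2 in IR against DKO and of Egr2 in ∆CT against IR were lost. With a minimum fold of 1.5, in edgeR and in limma alike, the members called were 1 for IR, 2 for K1030R and 0 for JMO against DKO, 0 for K1030R, 1 for ∆CT and 0 for JMO against IR, 0 for insulin in K1030R and 1 in JMO cells, and 0 for the ∆CT effect against IR and the JMO effect against K1030R. For basal JMO against K1030R, edgeR called 1 and limma 0. They were 3 for basal ∆CT against DKO, basal JMO against ∆CT and JMO against IR with insulin, where the Nab2 calls were lost. The calls over all genes fell too, in edgeR from 7665 to 1061 for basal IR and from 5276 to 325 for basal JMO against DKO, from 288 to 34 for insulin in IR and from 24 to 0 in K1030R cells. With the shortest coding transcripts as lengths, chosen after seeing the data, the basal NAB to EGR ratio was 3.60 in JMO and 8.75 in ∆CT cells, and with no length 1.45 and 3.04.

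With each library left out in turn, the members called ranged from 3 to 4 for basal IR and from 1 to 2 for basal JMO against DKO, from 2 to 4 for K1030R and from 2 to 3 for ∆CT against IR, from 0 to 1 for ∆CT against K1030R, from 1 to 2 for insulin in JMO cells and from 1 to 2 for the ∆CT effect against IR. Without 1 of the 2 ∆CT insulin libraries, the other was assumed to vary like the remaining groups. Among the 92 values above, small differences that changed sign had these log2 ranges. Egr1 ran from -0.039 to 0.091 for basal IR and from -0.013 to 0.067 for JMO against DKO, and from -0.061 to 0.069 for JMO against IR. Egr2 ran from -0.13 to 0.033 for K1030R against IR. Egr3 ran from -0.096 to 0.058 for JMO against DKO and from -0.037 to 0.12 for insulin in JMO cells. Nab1 ran from -0.038 to 0.019 for JMO against ∆CT and from -0.0035 to 0.070 for insulin in IR cells. Nab2 ran from -0.13 to 0.0040 for K1030R and from -0.10 to 0.033 for ∆CT against IR, and from -0.080 to 0.055 for insulin in IR cells. The cause of these changes was not tested. Depth limits Egr4, with 0 counts, and Egr2, with 48 to 212.5 counts in basal libraries for 1 identifier.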
